A study of Mus musculus with 4 samples.

Results

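Thymosins and the core proteins of the actin cytoskeleton were followed as a set of 10 genes among the 45773 gene symbols shared by 4 RNA libraries of mouse CD8 T cells from tumours. The members were named by symbol: the thymosins Tmsb4x and Tmsb10, the actins Actb and Actg1, the actin-binding proteins Pfn1, Cfl1 and Coro1a, the Arp2/3 subunits Arpc2 and Arpc3, and the GTPase inhibitor Arhgdib. They were chosen by their TPM and rank in these same libraries, with earlier results known, so their levels and differences are a description and support nothing by themselves. All 10 were found in each library, and all 10 had a mean of at least 1 TPM (a level corrected for transcript length and scaled to one total per library), which is the limit used for the 12570 genes called measured.

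In the first experiment, Pmel-I CD8 T cells, whose transgenic receptor is specific for gp100, an antigen of melanocytes, received either the retroviral vector MigRI or Klf4. They were injected on day 7 into Rag2 KO mice, which have no T or B cells of their own, that bore MC38-gp100 tumours, and GFP-positive CD8 T cells were taken from the tumours on day 15. In the second, PD1-positive CD8 T cells were taken on day 14 from MC38 tumours of mice labelled Control (WT) and of mice labelled Klf4 cKO. The labels give neither the Cre driver or deleted part of the cKO, nor the age, strain or number of the mice, nor whether animals were pooled. Each tumour was started from 300000 cells, each sample held 10000 to 20000 T cells, and libraries were made with a SMART-seq kit. With 1 library in each of the 4 groups there is no replicate to check a difference against, and no test, SD or p-value is given. The read depth behind a TPM value is unknown, and counting intervals were not made.

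Actin is held in the cell as monomers and as filaments. Beta-thymosins bind monomers and keep them in reserve, profilin feeds monomers to growing ends, cofilin severs and takes apart old filaments, the Arp2/3 complex starts branches, coronin acts on branches and old filaments, and dissociation inhibitors such as Arhgdib hold small GTPase switches inactive in the cytosol. In T cells this machinery drives migration, the synapse with a target cell and the release of lytic granules. Several of its genes come in pairs, with a form found mainly in blood cells and a form found in most cell types.

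The 2 thymosins are shown first because Tmsb4x far exceeded Tmsb10 in every library and their small coding parts can be compared whole. Their coding parts are given without the stop codon, from GENCODE M21 on mm10, 5′ to 3′, with capitals at the bases that differ between them. Tmsb4x lies on the minus strand at chrX:167207504-167208036 and Tmsb10 on the minus strand at chr6:72957621-72958012.
Tmsb4x: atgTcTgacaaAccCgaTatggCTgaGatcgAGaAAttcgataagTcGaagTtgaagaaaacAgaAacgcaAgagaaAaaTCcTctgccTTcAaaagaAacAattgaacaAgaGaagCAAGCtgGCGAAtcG
Tmsb10: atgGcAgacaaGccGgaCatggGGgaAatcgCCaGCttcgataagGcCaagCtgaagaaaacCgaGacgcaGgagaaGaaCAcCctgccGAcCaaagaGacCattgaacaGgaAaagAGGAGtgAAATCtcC
Both are 132 bases long without a gap, and 92 of those bases (69.7%) are identical. The transcripts carrying them are 768 and 570 nucleotides long.

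The 2 cytoplasmic actins are shown because their coding parts are close to each other. The first 45 bases of each coding part follow, again with capitals at differing bases. Actb lies on the minus strand with its coding part at chr5:142903801-142905686, and Actg1 on the minus strand at chr11:120346393-120348091.
Actb: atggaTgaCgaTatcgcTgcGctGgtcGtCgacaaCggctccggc
Actg1: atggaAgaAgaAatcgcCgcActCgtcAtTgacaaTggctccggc
In this start 9 bases differ, and over the whole coding part of 1125 bases 997 (88.6%) are identical. Of all stretches of 50 bases in the longest coding transcript of Actg1, 56.7% also occur in transcripts of other genes, 51.1% in Gm12715 alone. The share was 43.5% for Tmsb10, 14.2% for Actb, 9.11% for Cfl1 and 0.216% for Arpc2, and it was 0 for Tmsb4x, Pfn1, Coro1a, Arpc3 and Arhgdib. Levels of Actg1 and Tmsb10 are therefore uncertain wherever reads could be split between copies. Stretches that Actb and Actg1 share with each other are not given separately. The deposited pseudogene entry Actg-ps1 was at 11.0 TPM with MigRI, 43.9 TPM with Klf4, 2.25 TPM in WT control and 31.7 TPM where mice were labelled Klf4 cKO.

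Checks on the 4 libraries come before the results. Klf4 was at 8.69 TPM with MigRI, 26.05 TPM with Klf4, 7.52 TPM in WT control and 9.28 TPM where the label reads Klf4 cKO, so nothing in its level tests the cKO label, on which all values of the second comparison depend. That library is called the cKO-labelled library from here on. For Klf4 over MigRI, the Klf4 gene differed by 1.48 in log2(TPM + 1). Relative to the median measured gene this was 0.69, under 2-fold, so its level is a weak check of the Klf4 label. All 10 CD8 T cell markers were detected in every library, with summed levels of 24087 TPM with MigRI, 5732 TPM with Klf4, 7765 TPM in WT control and 17818 TPM in the cKO-labelled library. The 14 macrophage and monocyte markers summed to 1748, 7578, 566 and 1862 TPM in the same order, with none at 0. The 12 fibroblast and endothelium markers summed to 146, 1400, 31.8 and 264 TPM, with Cdh5 at 0 in control. The 6 tumour epithelium markers summed to between 0.717 and 3.50 TPM, neutrophil and mast cell markers to 29.0, 152, 29.6 and 45.2 TPM, and platelet and erythroid markers to 677, 613, 28.3 and 14.7 TPM. Genes whose longest transcript is under 1000 nucleotides held 38.8% of all TPM with MigRI, 21.7% with Klf4, 54.9% in control and 41.3% in the cKO-labelled library. The part of these shifts in the results below was not tested, and in bulk RNA fewer cells of a type and less RNA per cell cannot be told apart.

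Together the 10 genes held 7.96% of all TPM with MigRI, 2.90% with Klf4, 12.4% in control and 10.8% in the cKO-labelled library. Tmsb4x and Pfn1 made up most of that sum in MigRI (85.3%), in control (94.4%) and in the cKO-labelled library (80.7%), and 48.1% of it with Klf4. Every member ranked within the highest 1000 genes of every library. The lowest-ranked members were Actg1 in MigRI (rank 716), control (rank 870) and the cKO-labelled library (rank 299), and Coro1a with Klf4 (rank 733).

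**Figure D1:**
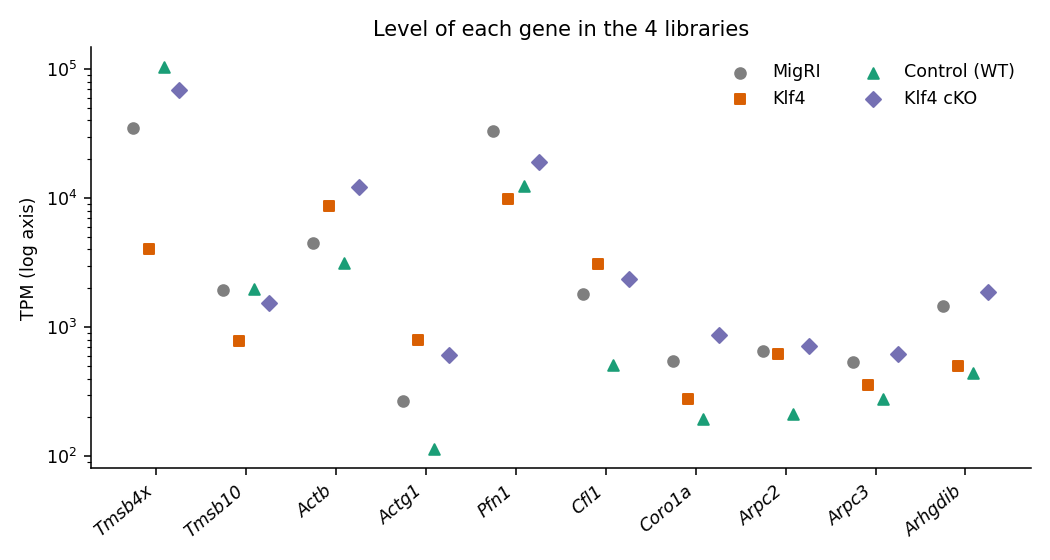
Level of each of the 10 genes in TPM on a log axis, with 1 point per library (circle MigRI, square Klf4, triangle control, diamond Klf4 cKO). Tmsb4x spans 4053 to 104611 TPM, the widest spread of the set, and its square lies far below the other points.

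Tmsb4x, the main monomer-binding thymosin of blood cells, was the most abundant gene in 3 of the 4 libraries. It was at 34734 TPM with MigRI (rank 1), 4053 TPM with Klf4 (rank 15), 104611 TPM in WT control (rank 1) and 68484 TPM in the cKO-labelled library (rank 1). In control this gene alone held 10.5% of all TPM. Klf4-transduced cells were the low library, 8.57-fold below MigRI, a difference of -3.10 in log2(TPM + 1). The library labelled Klf4 cKO was 1.53-fold below control, a difference of -0.61. Differences are also given relative to the median measured gene, which differed by 0.79 log2 for Klf4 over MigRI and by 0.74 log2 for Klf4 cKO over control. On that scale Tmsb4x was lower by more than 2-fold in both comparisons, at -3.89 and -1.35. Among genes whose longest transcript is under 1000 nucleotides the medians were -0.34 and 0.26, and against those Tmsb4x was at -2.76 and -0.88. In the first comparison Tmsb4x was below 0 under each of 13 other scalings, filters and pseudocounts. In the second it was below 0 under 12 of them and at 0 under quantile normalization, which gives the top-ranked gene of every library the same value. The filters among the 13 leave the value of a single gene as it is, so they could not turn its sign. Pseudocounts of 0.1 and 5 both gave -3.10 for Tmsb4x in the first comparison, since they hardly move a gene at this level. The same limit holds for each count out of 13 below.

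Tmsb10, the second thymosin, was far lower than Tmsb4x in each library. It was at 1935 TPM with MigRI, 783 TPM with Klf4, 1993 TPM in WT control and 1544 TPM in the cKO-labelled library. MigRI, control and the cKO-labelled library were close to each other, and the Klf4-transduced library stood below them. The differences were -1.30 for Klf4 over MigRI and -0.37 for Klf4 cKO over control (0.06 under quantile normalization), or -2.10 and -1.11 relative to the median gene. Set against the T cell receptor constant genes Trac, Trbc1 and Trbc2, which were themselves lower with Klf4, the first turned to 0.73. On that scale the median of all measured genes was 2.83 for Klf4 over MigRI and -1.08 for Klf4 cKO over control. The ratio of Tmsb4x to Tmsb10 was 18.0 in MigRI, 5.18 with Klf4, 52.5 in control and 44.3 in the cKO-labelled library. Tmsb4x thus stood 3.47-fold less far above its paralog with Klf4 than with MigRI, while the change in the second experiment was 1.18-fold.

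The remaining beta-thymosin genes were minor. Tmsb15b1 was at 11.0, 3.22, 68.8 and 23.2 TPM with MigRI, Klf4, control and the cKO-labelled library, and Tmsb15l, an overlapping gene on the X chromosome, at 14.3, 6.94, 61.4 and 32.3 TPM. Tmsb15a and Tmsb15b2 were listed at 0 in all 4. Tmsb15b1 was lower by -1.50 and -1.53 log2 and Tmsb15l by -0.94 and -0.91, so all 4 measured thymosins had values below 0 in both comparisons as deposited, while relative to the receptor constant genes those for Klf4 turned to 0.53 for Tmsb15b1 and 1.09 for Tmsb15l, as for Tmsb10. Their loci overlap on the same strand in GENCODE M21, so both values are uncertain.

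Actb, which encodes cytoplasmic beta-actin, differed in the opposite direction to Tmsb4x as deposited. It was at 4464 TPM with MigRI (rank 18), 8635 TPM with Klf4 (rank 5), 3140 TPM in WT control (rank 46) and 12279 TPM in the cKO-labelled library (rank 5). Both manipulated libraries were above their partners, by 1.93-fold (0.95 log2) and 3.91-fold (1.97 log2). Relative to the median gene the differences were 0.16 and 1.23, so the first was small once the shift of all genes was taken off, and under median of ratios scaling it was -0.05.

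Actg1, which encodes cytoplasmic gamma-actin, was at 269 TPM with MigRI, 799 TPM with Klf4, 113 TPM in WT control and 603 TPM in the cKO-labelled library. As deposited it had the highest difference of the 10 genes in both comparisons, 1.56 and 2.40 log2, or 0.77 and 1.67 relative to the median gene. Its copies in the genome make these values uncertain, as set out above. The ratio of Actb to Actg1 was 16.6 in MigRI, 10.8 with Klf4, 27.7 in control and 20.3 in the cKO-labelled library. The muscle actins were near absent: Acta2, a smooth muscle actin also found in activated fibroblasts, was at 0.272, 3.64, 0.543 and 5.77 TPM in the same order. Actg2 was listed at 0 in MigRI and control, and was at 3.22 TPM with Klf4 and 0.844 TPM in the cKO-labelled library. Actc1 was listed at 0 throughout and Acta1 was at 0.450 TPM with MigRI and listed at 0 elsewhere.

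The ratio of Tmsb4x to Actb is not changed by multiplying a library by a common factor. It was 7.78 in MigRI, 0.469 with Klf4, 33.3 in control and 5.58 in the cKO-labelled library. Klf4-transduced cells formed the one library in which Actb exceeded Tmsb4x. The ratio was 16.6-fold lower with Klf4 than with MigRI and 5.97-fold lower in the cKO-labelled library than in control, so both experiments gave a lower ratio in the manipulated library. Quantile normalization, which is not a common factor, gave 25.3-fold and 4.33-fold. The ratio of both thymosins to both actins was 7.75, 0.513, 32.8 and 5.44 in the same order, 15.1-fold and 6.03-fold lower. The transcripts differ in length, 864 nucleotides for the longest of Tmsb4x and 1920 for Actb, and the medians of the 2 length classes they belong to also differed: -0.34 and 0.83 for Klf4 over MigRI, and 0.26 and 1.26 for Klf4 cKO over control. The part of length in the lower ratio was not tested, and the ratio itself differed by -4.05 and -2.58 log2.

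**Figure D2:**
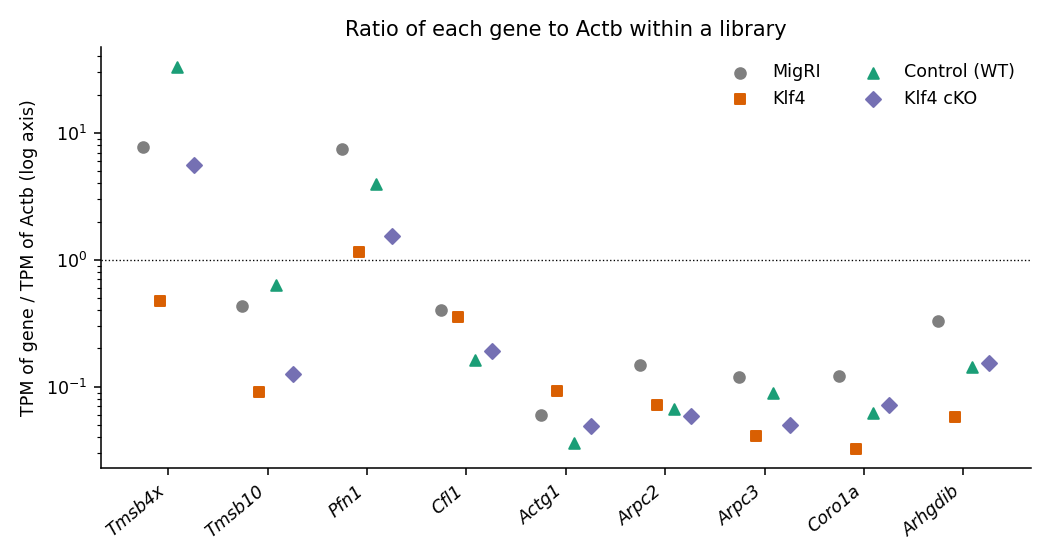
TPM of each of the other 9 genes divided by TPM of Actb in the same library, on a log axis, with the dotted line at equal levels. For Tmsb4x the ratio ranges from 33.3 in control down to 0.469 with Klf4, while for Cfl1 it ranges from 0.162 to 0.404.

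Pfn1, the profilin that delivers actin monomers to filament ends, stayed within the 4 highest genes of every library. It was at 33223 TPM with MigRI, 9866 TPM with Klf4, 12347 TPM in WT control and 18953 TPM in the cKO-labelled library. MigRI was the high library. The differences were -1.75 log2 for Klf4 over MigRI and 0.62 for Klf4 cKO over control, or -2.54 and -0.12 relative to the median gene. The first turned to 0.28 relative to the receptor constant genes and was -0.78, under 2-fold, with quantile normalization. The second was below 0 in 4 of 13 alternatives. Divided by Actb, Pfn1 was 7.44 in MigRI, 1.14 with Klf4, 3.93 in control and 1.54 in the cKO-labelled library, lower in the manipulated library by 6.51-fold and 2.55-fold. Pfn2, the other measured profilin, which is found in many non-blood tissues, was at 1.95, 24.8, 1.14 and 3.49 TPM.

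Cfl1, the cofilin that severs filaments, stayed near a constant fraction of Actb within each experiment. It was at 1802 TPM with MigRI, 3070 TPM with Klf4, 509 TPM in WT control and 2365 TPM in the cKO-labelled library. The differences were 0.77 and 2.21 log2, or -0.02 and 1.48 relative to the median gene, and the first was below 0 in 4 of 13 alternatives. Divided by Actb, Cfl1 was 0.404, 0.356, 0.162 and 0.193, a change of 1.14-fold down in the first comparison and 1.19-fold up in the second. The ratio of Pfn1 to Cfl1, a monomer supplier to a filament-severing protein, was 18.4 in MigRI, 3.21 with Klf4, 24.3 in control and 8.01 in the cKO-labelled library.

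Coro1a, the coronin of blood cells, was at 546 TPM with MigRI, 277 TPM with Klf4, 194 TPM in WT control and 875 TPM in the cKO-labelled library. Arhgdib, the GTPase dissociation inhibitor found mainly in blood cells, was at 1463, 502, 445 and 1887 TPM in the same order. Both genes were lower with Klf4 than with MigRI, by -0.97 and -1.54 log2, and higher in the cKO-labelled library than in control, by 2.16 and 2.08 log2. Relative to the median gene the differences were -1.77 and -2.33 in the first comparison and 1.43 and 1.34 in the second. Divided by Actb, Coro1a was 3.81-fold and Arhgdib 5.64-fold lower with Klf4, while in the cKO-labelled library they were 1.15-fold and 1.08-fold above control. Of the 10 CD8 T cell markers, 10 were at least 2-fold lower with Klf4 and 8 at least 2-fold higher in the cKO-labelled library, where 10.3% and 38.4% of all measured genes were. The other two in the second comparison were Lck at 0.61 log2 and Cd3d, which was at 2580 TPM in WT control and 1936 TPM in the cKO-labelled library, a difference of -0.41. Relative to the median gene, 10 of the 10 markers were lower with Klf4, beside 23.6% of all measured genes. In the cKO-labelled library 4 were higher and 1 lower on that scale, beside 12.4% and 16.2%. Cd8a was at 168 TPM with MigRI, 43.9 TPM with Klf4, 136 TPM in WT control and 518 TPM in the cKO-labelled library. Set against the receptor constant genes, the differences with Klf4 turned to 1.06 for Coro1a and 0.49 for Arhgdib, and those of the cKO-labelled library shrank to 0.35 and 0.26.

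Arpc2 and Arpc3, subunits of the Arp2/3 complex, differed by less than 2-fold between the first 2 libraries as deposited. Arpc2 was at 659 TPM with MigRI, 617 TPM with Klf4, 211 TPM in WT control and 719 TPM in the cKO-labelled library. Arpc3 was at 533, 354, 279 and 616 TPM in the same order. Control was the low library for both. The differences were -0.10 and -0.59 log2 for Klf4 over MigRI and 1.77 and 1.14 for Klf4 cKO over control, or -0.89, -1.38, 1.03 and 0.41 relative to the median gene. Set against the receptor constant genes, the differences with Klf4 turned to 1.94 and 1.45, and those of the cKO-labelled library to -0.05 and -0.67.

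**Figure D3:**
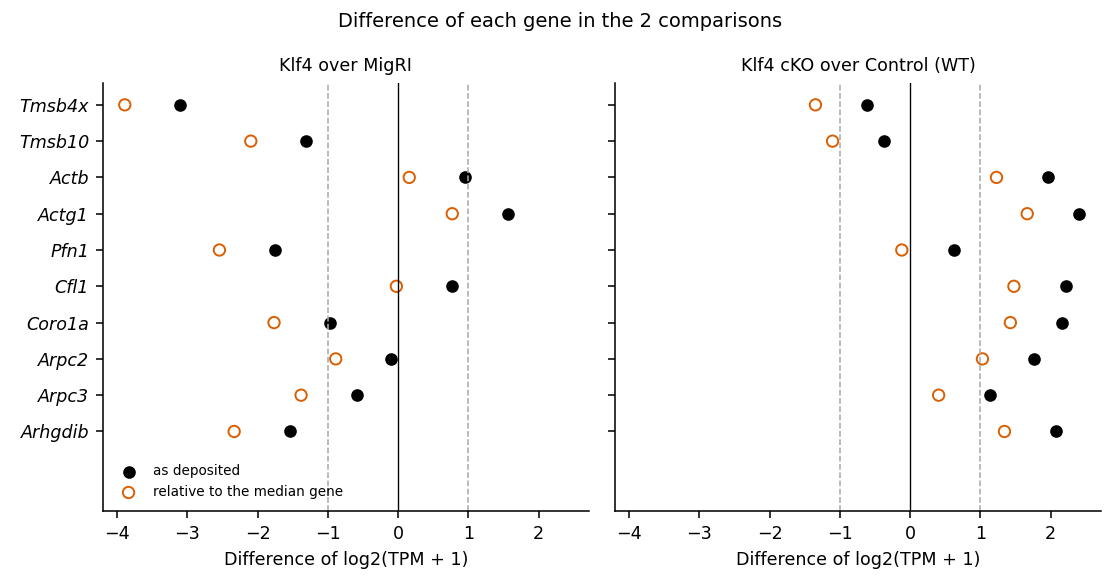
Difference of log2(TPM + 1) for each of the 10 genes in the 2 comparisons, as deposited (filled) and relative to the median measured gene (open), with dashed lines at a 2-fold difference. As drawn, the thymosins lie left of 0 and the actins right of 0 in both panels; other scalings not drawn turn Tmsb10 in both comparisons and Actb with Klf4.

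Of the 10 genes, 1 was at least 2-fold higher with Klf4 as deposited (Actg1), where 43.7% of all measured genes were, and 4 were at least 2-fold lower (Tmsb4x, Tmsb10, Pfn1 and Arhgdib), where 10.3% of all measured genes were. Relative to the median gene 0 were higher and 6 lower, where 21.4% and 23.6% of measured genes were. The median of the 10 was -0.78 log2 as deposited, beside 0.79 over all measured genes. In the cKO-labelled library 7 of the 10 were at least 2-fold higher than in control, where 38.4% of measured genes were, and 0 were lower, where 6.92% were. Relative to the median gene 6 were higher and 2, the thymosins, lower, where 12.4% and 16.2% were. The median was 1.87 log2, beside 0.74 over all measured genes. Since the members were chosen with these contrasts known, nothing is read from their counts. The receptor constant genes were lower with Klf4 by a mean of -2.03 log2 and higher in the cKO-labelled library by 1.82. Against them, 6 of the 10 were higher and 1 (Tmsb4x) lower with Klf4, where 90.2% and 0.804% of all measured genes were. In the cKO-labelled library 0 were higher and 3 (Tmsb4x, Tmsb10 and Pfn1) lower on that scale, where 0.716% and 53.8% were.

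The rest of the actin machinery was read from 13 lists arranged by role. Outside the 10 members, 86 listed genes were measured. With Klf4, 35 of the 86 (40.7%) were at least 2-fold higher and 8 (9.30%) lower, near the shares of all measured genes. Their median was 0.80, beside 0.79 over all measured genes. In the cKO-labelled library, 36 (41.9%) were higher and 3 (3.49%) lower, with a median of 0.76 beside 0.74. Over all measured genes the shares were 43.7% higher and 10.3% lower with Klf4, and 38.4% higher and 6.92% lower in the cKO-labelled library. Relative to the median gene, 20 of the 86 (23.3%) were higher and 21 (24.4%) lower with Klf4, beside 21.4% and 23.6% of all measured genes. In the cKO-labelled library 20 (23.3%) were higher and 11 (12.8%) lower on that scale, beside 12.4% and 16.2%.

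All 10 genes of the Arp2/3 list were found and 9 were measured. With Klf4, 2 of the 9 were at least 2-fold higher and 0 lower, where 43.7% and 10.3% of all measured genes were. In the cKO-labelled library 8 were higher and 0 lower, where 38.4% and 6.92% were. On the scale of the median gene 1 was higher and 3 lower with Klf4, beside 21.4% and 23.6% of all measured genes. In the cKO-labelled library 3 were higher and 0 lower on that scale, beside 12.4% and 16.2%. The subunit with the highest level in the first experiment was Arpc1b, at 835 TPM with MigRI and 1863 TPM with Klf4, a difference of 1.16 log2. It was at 213 TPM in WT control and 652 TPM in the cKO-labelled library. Its paralog Arpc1a was at 31.8, 151, 11.7 and 40.3 TPM, differences of 2.21 and 1.70. Arpc4 was at 183, 344, 81.1 and 281 TPM, and Arpc5 at 447, 472, 156 and 455 TPM. Arpc5l was at 249, 145, 61.3 and 175 TPM. Actr3, which encodes the Arp3 protein, was at 71.6, 126, 27.5 and 131 TPM, and Actr2, which encodes Arp2, at 53.7, 39.6, 30.8 and 36.5 TPM. Actr2 was the measured subunit whose level moved by less than 2-fold in the cKO-labelled library, at 0.24 log2. Transcripts of the measured subunit genes, paralogs such as Arpc1a and Arpc1b included, were thus far apart in TPM. The fold between lowest and highest ranged from 19.7 in the cKO-labelled library to 47.1 with Klf4. Protein was not measured. Actr3b was at 0.329 TPM or lower in all 4.

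Filament turnover genes included values in both directions. Gmfg, a debranching factor of blood cells, was at 511 TPM with MigRI, 33.3 TPM with Klf4, 1170 TPM in WT control and 570 TPM in the cKO-labelled library, lower by -3.90 and -1.04 log2. Wdr1, a cofilin partner, was at 36.9, 77.0, 24.6 and 58.9 TPM, higher by 1.04 and 1.23. Of the 11 measured genes of this list, 6 were higher and 2 lower with Klf4, where 43.7% and 10.3% of all measured genes were. In the cKO-labelled library 5 were higher and 1 lower, where 38.4% and 6.92% were. Relative to the median gene, 2 were higher and 2 lower with Klf4, beside 21.4% and 23.6% of all measured genes. In the cKO-labelled library 3 were higher and 2 lower on that scale, beside 12.4% and 16.2%.

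Capping proteins close filament ends. The 2 with the highest levels were nearly level in the first experiment as deposited: Capg was at 727 TPM with MigRI and 679 TPM with Klf4, and Capzb at 590 and 547 TPM, differences of -0.89 and -0.90 relative to the median gene. Capza1 was at 32.3 and 57.0 TPM and Capza2 at 110 and 206 TPM, differences of 0.80 and 0.90 log2 as deposited. In the second experiment Capg and Capzb were higher in the cKO-labelled library: Capg was at 289 TPM in WT control and 1028 TPM in that library, and Capzb at 153 and 679 TPM. Of 7 measured capping and severing genes, 3 were higher and 0 lower with Klf4, where 43.7% and 10.3% of all measured genes were. In the cKO-labelled library 4 were higher and 0 lower, where 38.4% and 6.92% were. Relative to the median gene 1 was higher with Klf4 and 3 in the cKO-labelled library, beside 21.4% and 12.4% of all measured genes.

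Among regulators of Arp2/3, Brk1, a small subunit of the WAVE complex, was at 232 TPM with MigRI, 408 TPM with Klf4, 137 TPM in WT control and 473 TPM in the cKO-labelled library. Wasf2, a WAVE protein, was at 32.8, 30.1, 34.55 and 39.4 TPM. Of 15 measured nucleation promoting factors, 4 were higher and 1 lower with Klf4, where 43.7% and 10.3% of all measured genes were. In the cKO-labelled library 3 were higher and 0 lower, where 38.4% and 6.92% were. Relative to the median gene, 4 were higher and 5 lower with Klf4, beside 21.4% and 23.6% of all measured genes. In the cKO-labelled library 2 were higher and 2 lower on that scale, beside 12.4% and 16.2%. The formins, which build unbranched filaments, were low: Diaph1 was at 6.94, 5.97, 8.36 and 10.6 TPM and Fmnl1 at 6.15, 1.90, 8.10 and 9.58 TPM.

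Among motors and linkers, Myl6, a myosin light chain, had values below 0 in both comparisons as deposited, and 0.55 with Klf4 relative to the receptor constant genes. It was at 2607 TPM with MigRI, 928 TPM with Klf4, 4960 TPM in WT control and 3982 TPM in the cKO-labelled library, differences of -1.49 and -0.32 log2. Myl12a, a regulatory light chain, was at 1311, 853, 430 and 1667 TPM, differences of -0.62 and 1.95. Of 10 measured myosins and tropomyosins, 3 were higher and 1 lower with Klf4, where 43.7% and 10.3% of all measured genes were. In the cKO-labelled library 5 were higher and 0 lower, where 38.4% and 6.92% were. Relative to the median gene, 3 were higher and 3 lower with Klf4, beside 21.4% and 23.6% of all measured genes. In the cKO-labelled library 3 were higher and 2 lower on that scale, beside 12.4% and 16.2%. Lcp1, the plastin of blood cells that bundles filaments, was at 92.3, 58.3, 68.7 and 145 TPM. Actn4, an alpha-actinin crosslinker, was at 30.4, 78.7, 40.9 and 29.96 TPM. Of 11 measured crosslinkers and membrane linkers, 6 were higher and 1 lower with Klf4, beside the same 43.7% and 10.3% of all measured genes. In the cKO-labelled library 3 were higher and 1 lower, beside 38.4% and 6.92%. Relative to the median gene, 2 were higher and 2 lower with Klf4, beside 21.4% and 23.6%. In the cKO-labelled library 0 were higher and 2 lower on that scale, beside 12.4% and 16.2%.

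**Figure D4:**
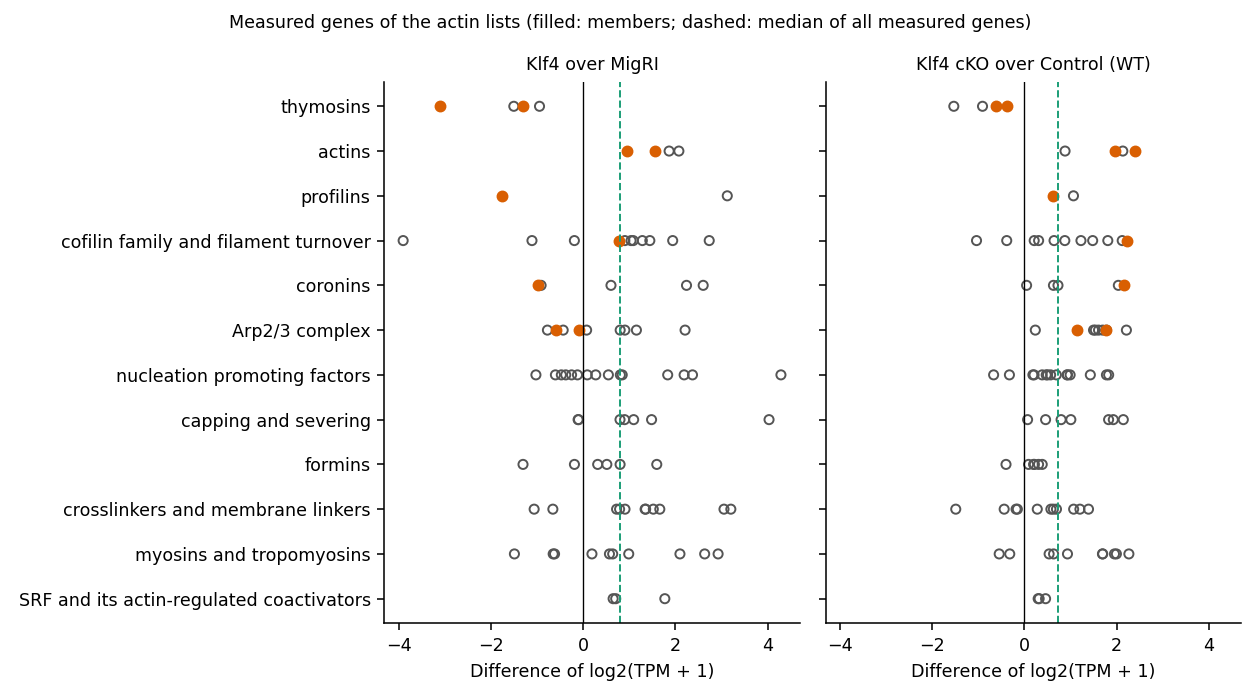
Difference of log2(TPM + 1) of every measured gene of 12 actin lists in the 2 comparisons, with members filled and a dashed line at the median of all measured genes (0.79 and 0.74 log2). As deposited, the thymosin row lies left of 0 in both panels, and the profilin Pfn1 lies left of 0 in the first panel and right of it in the second, where 4 of 13 alternatives not drawn turn it below 0.

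Actin genes are known targets of serum response factor (SRF), whose coactivators are held back by free actin monomers. Srf was at 1.60 TPM with MigRI, 7.88 TPM with Klf4, 2.09 TPM in WT control and 2.86 TPM in the cKO-labelled library, differences of 1.77 and 0.32 log2. Relative to the median gene these were 0.98 and -0.42, both under 2-fold. Its coactivator Mrtfa was at 1.15, 2.51, 1.52 and 2.10 TPM, or -0.09 and -0.44 log2 relative to the median gene. Most of these levels lie near the limit of 1 TPM. SRF binds the CArG box, which was searched by that pattern in promoter windows from RefSeq (GRCm38.p6, 250 bases before to 50 after each start). The pattern is its own reverse complement, so both strands were covered, and no other motif was searched. Of 32851 windows, 535 (1.63%) held a CArG box. Windows were at hand for 9 of the 10 members, all but Actb, and among these Actg1 had 1 box and the others had 0 in these windows. The stretch upstream of the Actg1 start is shown because it holds that box, in capitals, at chr11:120348543-120348745 on the minus strand.
Actg1 upstream: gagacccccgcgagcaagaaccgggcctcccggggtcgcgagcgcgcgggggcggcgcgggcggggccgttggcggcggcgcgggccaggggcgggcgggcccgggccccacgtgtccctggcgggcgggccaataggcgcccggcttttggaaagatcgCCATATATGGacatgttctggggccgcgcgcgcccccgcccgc
The box lies 81 bases before the RefSeq start of Actg1. The match describes letters and says nothing of binding in these cells.

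Pairs of paralogs in which 1 form is found mainly in blood cells and the other in most tissues were compared within each library, where scaling nearly cancels. The 9 pairs were drawn from the lists after their values had been seen, so their counts and medians are a description and support nothing by themselves. No share over other gene pairs was computed to set beside them. In all 9 the blood cell form stood less high, or lower, against its partner with Klf4 than with MigRI, and in 7 the shift was at least 2-fold. Coro1a was above Coro1b by 3.18 log2 in MigRI and below it by -0.40 with Klf4, a shift of -3.58. Coro1b itself, a coronin of most tissues, was at 59.5 TPM with MigRI and 367 TPM with Klf4. Arhgdib was above Arhgdia by 2.90 in MigRI and below it by -0.71 with Klf4, a shift of -3.61.

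Rac2, the Rac GTPase of blood cells, was at 245 TPM with MigRI and 77.5 TPM with Klf4, while Rac1 was at 144 and 429 TPM, a shift of -3.21. Hcls1 and Cttn, 2 cortactin-type proteins, gave the largest shift of the 9, -4.20, with Cttn at 1.496 TPM with MigRI and 47.8 TPM with Klf4. Lcp1 and the plastin Pls3 shifted by -3.71, with Pls3 at 0.882 and 14.6 TPM. The smaller shifts were -0.99 for Nckap1l and Nckap1 and -0.87 for Was and Wasl. In the second experiment the shifts ranged from -2.49 for Was and Wasl to 0.48 for Arhgdib and Arhgdia, and 1 of 9 was at least 2-fold lower. With a pseudocount of 0.1 in place of 1, chosen after seeing the data, the numbers at least 2-fold lower were 9 in the first experiment and 3 in the second. The median shift was -3.21 in the first and -0.17 in the second, the latter turning to 0.06 with a pseudocount of 5.

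Some markers of non-blood cells were higher with Klf4: Sparc, a matrix protein, was at 89.3 TPM with MigRI and 821 TPM with Klf4, and Dcn, a matrix proteoglycan, at 31.1 and 302 TPM. Of 11 measured fibroblast and endothelium markers, 9 were at least 2-fold higher with Klf4 and 0 lower, where 43.7% and 10.3% of all measured genes were. In the second experiment 7 of the 11 were higher in the cKO-labelled library, where 38.4% of measured genes were, with Sparc at 18.4 and 186 TPM. With Klf4, 12 of 13 measured macrophage and monocyte markers were at least 2-fold higher, and 0 lower, beside the same 43.7% and 10.3%. For neutrophil and mast cell markers it was 7 of 7, and 0 lower. Of 4 measured platelet and erythroid markers 1 was higher and 0 lower, again beside 43.7% and 10.3%. In the cKO-labelled library 8, 3 and 0 of these were higher and 0, 2 and 0 lower, beside 38.4% and 6.92% of measured genes. Relative to the median gene, 9, 10, 5 and 0 markers of these lists, in the order named here, were higher with Klf4. On that scale 1, 0, 0 and 1 were lower, where 21.4% of all measured genes were higher and 23.6% lower. In the cKO-labelled library 5, 6, 3 and 0 were higher and 0, 0, 2 and 4 lower, beside 12.4% and 16.2%. The part of any of these markers in the shifts was not tested.

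**Figure D5:**
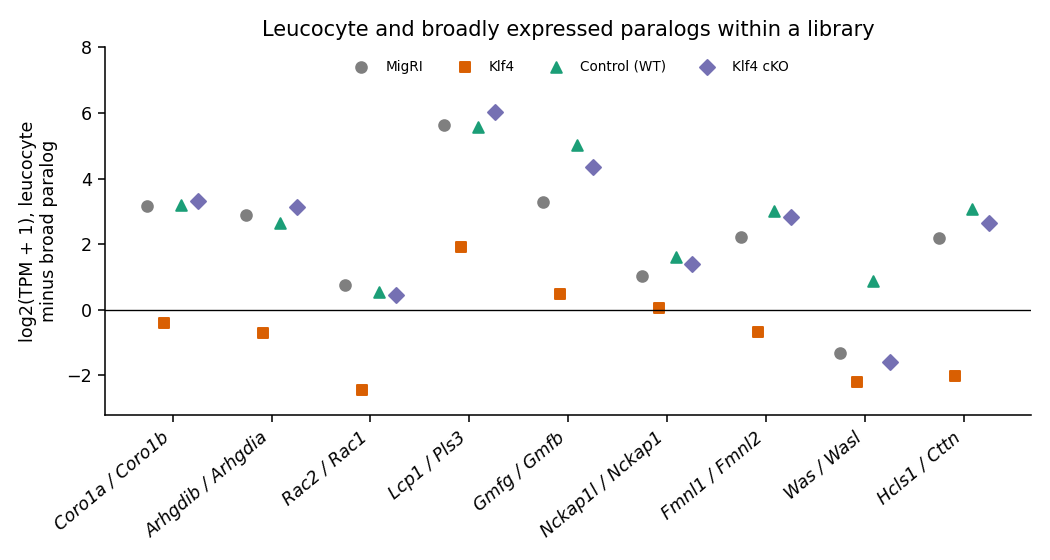
Difference of log2(TPM + 1) between the blood cell form and the broadly expressed form of 9 paralog pairs in each library, with 0 at equal levels. In the first pair the Klf4 square lies at -0.40 and the other libraries lie between 3.18 and 3.32.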

How the data were processed

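The authors deposited TPM per gene, with 45777 entries for each library. Trimmomatic, HISAT2, StringTie and edgeR are named, with build mm10, per the submitters' processing notes; versions, roles and annotation were not given in the sources used. Since TPM has a fixed total, a gene with a large share such as Tmsb4x lowers all others. The kit does not mark strand.

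Dates stood in place of 26 symbols in the control file; 22 could be restored, and 4 genes with ambiguous dates were dropped from all libraries, leaving 45773. Tables were joined by symbol with pandas 2.3.3. A mean of 1 TPM or more made a gene measured (12570). Differences are of log2(TPM + 1) within an experiment, and 1 log2 (2-fold) was called. An exact 0 may be a failed estimate and is given as listed at 0. Ratios are of TPM within a library. The 2-fold call on differences of log2(TPM + 1) was tried on simulated libraries with known changes. Other scalings, ratios, paralog pairs and sequence steps were not tried in this way.

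The members and lists were chosen with earlier results of these data known. Named genes were the 10 members, the 2 highest other genes of each list, all thymosins, actins and Arp2/3 subunits, Klf4, the 2 highest genes of each marker list, and the 5 genes most like Tmsb4x and the 5 most like Actb. Those named by this rule but not shown, and the results of 1 actin list and 1 marker list, are not reported here. Cd8a, Cd3d, Lck, Capza1, Actg-ps1 and the paralog pairs were chosen after their values were seen. Lengths and coordinates came from GENCODE M21, which covered 11761 of the measured genes (93.6%); the longest transcript set the length class. The alternatives tried were other pseudocounts, filters, scalings and reference genes.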

Additional observations from a re-analysis of the deposited data

How the results depend on the processing

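The ratio of Tmsb4x to Actb cannot change under median of ratios scaling or under rescaling leaving out mitochondrial genes, ribosomal proteins and receptor segments. Each of these multiplies a library by a common factor. Pseudocounts of 0.1 and 5, small beside these levels, moved the ratio by less than 1%. Quantile normalization gave 11.9 in MigRI, 22.2 in control and 5.13 in the library labelled Klf4 cKO. Rescaling without Tmsb4x and Pfn1, chosen after seeing the data, gave 1 member higher and 5 lower with Klf4, and 7 and 0 in the second comparison. The share of all measured genes called was found as deposited, relative to the median gene and relative to the receptor constant genes. It was not found under the other settings, so nothing is read from the counts given for them. For Klf4 over MigRI, members at least 2-fold higher (1 as deposited) numbered 0 under median of ratios scaling, relative to the median gene and relative to either length class, 3 under quantile normalization and 6 relative to the receptor constant genes; members lower (4) numbered 7 under median of ratios scaling and 1 relative to the receptor constant genes. For Klf4 cKO over control, members higher (7) numbered 0 relative to the receptor constant genes, 2 relative to the same length class and 3 where the class came from the longest coding transcript, an alternative chosen after seeing the data; members lower (0) numbered 2 under median of ratios scaling and relative to the median gene, and 3 relative to the receptor constant genes.

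The median of the members for Klf4 over MigRI (-0.78 log2) was -1.78 under median of ratios scaling, -0.65 under quantile normalization, -0.87 leaving out mitochondrial genes, ribosomal proteins and receptor segments, -0.94 without the 50 most abundant genes, -1.57 relative to the median gene and -0.95 relative to the length class. Relative to the receptor constant genes it reversed to 1.25, where the median of all measured genes was 2.83. For Klf4 cKO over control (1.87) the median of the members was 0.99, 1.56 and 1.75 under median of ratios, quantile normalization and without the 50 most abundant genes, 1.13 relative to the median gene, and 0.76 and 0.70 relative to the classes by longest and by longest coding transcript. It was 0.049 relative to the receptor constant genes, where the median of all measured genes was -1.08. Relative to the receptor constant genes 9 differences turned sign: to 0.73 for Tmsb10, 0.28 for Pfn1, 1.06 for Coro1a, 1.94 for Arpc2, 1.45 for Arpc3 and 0.49 for Arhgdib with Klf4, and to -1.20 for Pfn1, -0.051 for Arpc2 and -0.67 for Arpc3 in the library labelled Klf4 cKO.

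Of the 86 other actin genes, those higher with Klf4 (35) numbered 23 with a pseudocount of 5, 18 with a filter of 10 TPM (fewer genes tested), 17 under median of ratios, 19 under quantile normalization, 20 relative to the median gene, 79 relative to the receptor constant genes and 15 and 14 relative to the 2 length classes. Those lower (8) numbered 3 with a pseudocount of 5, 25 under median of ratios, 21 under quantile normalization and relative to the median gene, 1 relative to the receptor constant genes and 23 relative to either length class. In the library labelled Klf4 cKO those higher (36) numbered 17, 21 and 20 under median of ratios, quantile normalization and relative to the median gene, 0 relative to the receptor constant genes and 13 and 12 relative to the length classes; those lower (3) numbered 11, 9, 11, 44, 11 and 9 in that order. Except for the filter, the cause of these changes was not tested. Without the share of all measured genes under the same setting, these changes cannot be read as particular to the actin genes. That share was not found for the pseudocounts, the filter, median of ratios, quantile normalization or the length classes. No paired analysis was possible because each group is 1 library. The depth is unknown.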

Other observations

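Among 1235 genes averaging 100 TPM or more, leaving out predicted, mitochondrial, ribosomal protein and receptor segment genes, likeness was measured as the distance between the 2 differences of log2(TPM + 1), which rest on 4 libraries. The 5 genes nearest to Tmsb4x were Ptpn18, Tmem223, Sub1, Trappc6a and AW112010, at distances from 0.38 to 0.53 log2. Ptpn18, a tyrosine phosphatase, was at 78.6 TPM with MigRI, 8.22 TPM with Klf4, 308 TPM in WT control and 154 TPM in the library with the cKO label. AW112010, an interferon-inducible transcript, was at 3349, 493, 8606 and 7494 TPM. Sub1, a transcription coactivator, was at 1152, 189, 1575 and 1029 TPM. With Klf4, 24 of the 1235 genes had a lower difference than Tmsb4x.

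The 5 genes nearest to Actb were Phb2, Capza2, Ndufa10, Eif3i and Nudcd2, at distances from 0.06 to 0.10 log2. Capza2, a subunit of the capping protein that closes filament ends, was at 110 TPM with MigRI, 206 TPM with Klf4, 33.6 TPM in WT control and 131 TPM in the library with the cKO label. Phb2, a mitochondrial inner membrane protein, was at 328, 648, 45.9 and 188 TPM.

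Of the 1235 genes, 322 were below 0 in both comparisons, as Tmsb4x and Tmsb10 were. These included 158 of the 289 whose longest transcript is under 1000 nucleotides, a class that holds both thymosins. For Pfn1 the longest transcript is 1997 nucleotides and the longest coding one 861, so its length class depends on which is used.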
